A study of Mus musculus with 6 samples.

Results

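Fc gamma receptors bind the constant part of immunoglobulin G, and the 5 genes described here encode the 4 receptors of the mouse and the signalling chain that 3 of them share. The members were chosen by symbol: Fcgr1, Fcgr3, Fcgr4, Fcgr2b and Fcer1g, 5 of the 54446 entries of the expression table. RNA sequencing read their levels in macrophages differentiated in culture from the bone marrow of C57BL/6 mice aged 6 weeks. There were 3 groups of 2 samples, which received the buffer PBS, KN93 at 5 µM, or KN93 at 10 µM. KN93 is a compound that blocks CaMKII and CaMKIV, kinases switched on by calcium and calmodulin. The labels name no genotype beyond the strain and no duration of treatment. Nor do they state whether 2 samples of 1 group are separate cultures or mice. All p-values are therefore relative to the spread seen between these libraries, and that spread could be technical.

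Fcgr1 encodes the high-affinity receptor FcγRI, and Fcgr3 and Fcgr4 encode FcγRIII and FcγRIV. These 3 are activating receptors: each pairs with the Fc receptor gamma chain, the product of Fcer1g, whose ITAM (a tyrosine motif) is phosphorylated by Src-family kinases and then recruits the kinase Syk. FcγRIIB, the product of Fcgr2b, carries its own inhibitory motif (ITIM) and recruits the lipid phosphatase SHIP1 instead. In macrophages this set of receptors is known for uptake of antibody-coated particles and for responses to immune complexes, and the balance of activating to inhibitory receptors sets the threshold of the response.

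Fcgr2b and Fcgr3 are the closest relatives among the 4 receptor genes, and they lie near each other on chromosome 1. Their coding sequences were identical at 83.7% of aligned bases (659 of 787), against 58.7% to 63.3% for the other 5 pairs of receptors. The longest identical run of their coding sequences is shown with a fixed margin on either side, because fragments from it could be given to either gene by an aligner. The ends of the stretch are set by that margin and do not bound the region that is alike. It spans 249 coding bases across exons 3 and 4 of both genes, and capitals mark the 6 bases that differ. The Fcgr2b stretch lies at chr1:170966614-170968141 (GRCm38, minus strand, introns removed) and the Fcgr3 stretch at chr1:171054107-171057852 (minus strand).
Fcgr2b: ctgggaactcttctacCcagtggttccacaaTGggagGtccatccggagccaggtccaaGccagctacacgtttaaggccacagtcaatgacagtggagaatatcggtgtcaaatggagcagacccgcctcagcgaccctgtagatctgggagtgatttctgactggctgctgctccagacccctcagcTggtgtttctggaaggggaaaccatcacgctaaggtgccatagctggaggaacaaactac
Fcgr3: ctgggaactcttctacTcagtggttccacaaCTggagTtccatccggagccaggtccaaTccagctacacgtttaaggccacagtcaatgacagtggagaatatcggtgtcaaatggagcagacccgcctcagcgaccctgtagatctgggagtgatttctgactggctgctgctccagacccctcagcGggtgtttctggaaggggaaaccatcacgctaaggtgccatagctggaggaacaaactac
The longest run without a difference in this stretch is 129 bases. Over all annotated transcripts, Fcgr2b and Fcgr3 shared 94 words of 75 bases, which is 5.42% of the words of Fcgr3 and 1.63% of those of Fcgr2b. None of the other 9 pairs among the 5 genes shared a word of that length. How the authors' counting treated fragments that fit both genes is not given in the sources used here. The values of Fcgr2b and Fcgr3 could be touched by this. A share of words is not a share of length, and words with a differing base were not counted, so the length touched was not measured.

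Sequence upstream of the start sites is shown for the activating receptors, because Fcgr3 and Fcgr4 fell at 10 µM and Fcgr1 passed no test. The sequences are from RefSeq on GRCm38.p6, and all 5 genes had an entry. Capitals mark matches to 3 motifs searched on both strands of the 250 bases before each start: GAGGAA, a core of sites for the myeloid factor PU.1, TTCNNNGAA, a form bound by STAT factors, and GAAANNGAAA, a form of the interferon response element. No annotated exon base of the 5 members lies in the stretches printed, and exons of other genes were not checked. The Fcgr3 stretch lies before a RefSeq start but inside the annotated span of the gene, which begins further upstream.
Fcgr1, chr3:96293970-96294089, minus strand: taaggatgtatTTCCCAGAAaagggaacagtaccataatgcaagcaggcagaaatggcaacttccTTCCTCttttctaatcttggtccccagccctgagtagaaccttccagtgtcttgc
Fcgr3, chr1:171059404-171059523, minus strand: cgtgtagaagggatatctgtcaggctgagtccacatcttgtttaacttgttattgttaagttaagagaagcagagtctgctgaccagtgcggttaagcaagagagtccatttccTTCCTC
Fcgr4, chr1:171018806-171018919, plus strand: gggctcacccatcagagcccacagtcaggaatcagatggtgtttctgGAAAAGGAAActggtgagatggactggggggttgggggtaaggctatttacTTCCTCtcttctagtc
All 3 stretches hold TTCCTC, the reverse complement of GAGGAA, at 55 to 50 bases before the start in Fcgr1, 22 to 17 in Fcgr4 and 6 to 1 before the first of the 2 RefSeq starts of Fcgr3. The Fcgr1 stretch also holds TTCCCAGAA, and the Fcgr4 stretch holds GAAAAGGAAA. No match overlapped another. The windows of Fcgr2b and Fcer1g held no match. Among 32851 RefSeq promoters, windows of the same length held GAGGAA in 23.25%, TTCNNNGAA in 7.02% and GAAANNGAAA in 2.98%. A match is a run of letters and not evidence of binding.

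Levels are given as FPKM (fragments per kilobase of exon for every 1000000 fragments of a library), which is per length. The length is that of all annotated exons of a gene, 874 bases for Fcer1g and 5790 for Fcgr2b. Orders, shares and ratios between genes depend on these lengths. All 5 genes were expressed in every sample. With PBS the order was Fcer1g, Fcgr3, Fcgr1, Fcgr4 and Fcgr2b, at ranks 47, 81, 151, 383 and 1077 of the table. At 5 µM Fcgr3 and Fcgr1 were neighbours in that order, with mean levels of 290 and 257 FPKM and no overlap between the samples. At 10 µM their order was reversed, with 260 FPKM for Fcgr1 against 194 for Fcgr3, again without overlap. In every sample Fcer1g had the highest FPKM of the 5 and Fcgr2b the lowest, and neighbours in the order overlapped in no group. By recovered fragments the order differed. Fcgr2b was above Fcgr4 in every sample (7561 against 4521 fragments in PBS replicate 1), and Fcer1g was below Fcgr3 in both PBS samples. Fcer1g was also below Fcgr1 in PBS replicate 1 and in both 10 µM samples. The values rest on between 2280 and 21818 recovered fragments per gene and sample. Library totals implied by FPKM, in units of 1000000 fragments, ran from 24.2 to 28.4. No group lay apart from the others in depth. Fragments summed over genes exceeded these totals in every sample. They came to 28.5 against 26.9 in PBS replicate 1, and 30.7 against 28.4 in 10 µM replicate 2. Whether fragments were counted for more than 1 gene was not tested.

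**Figure D1:**
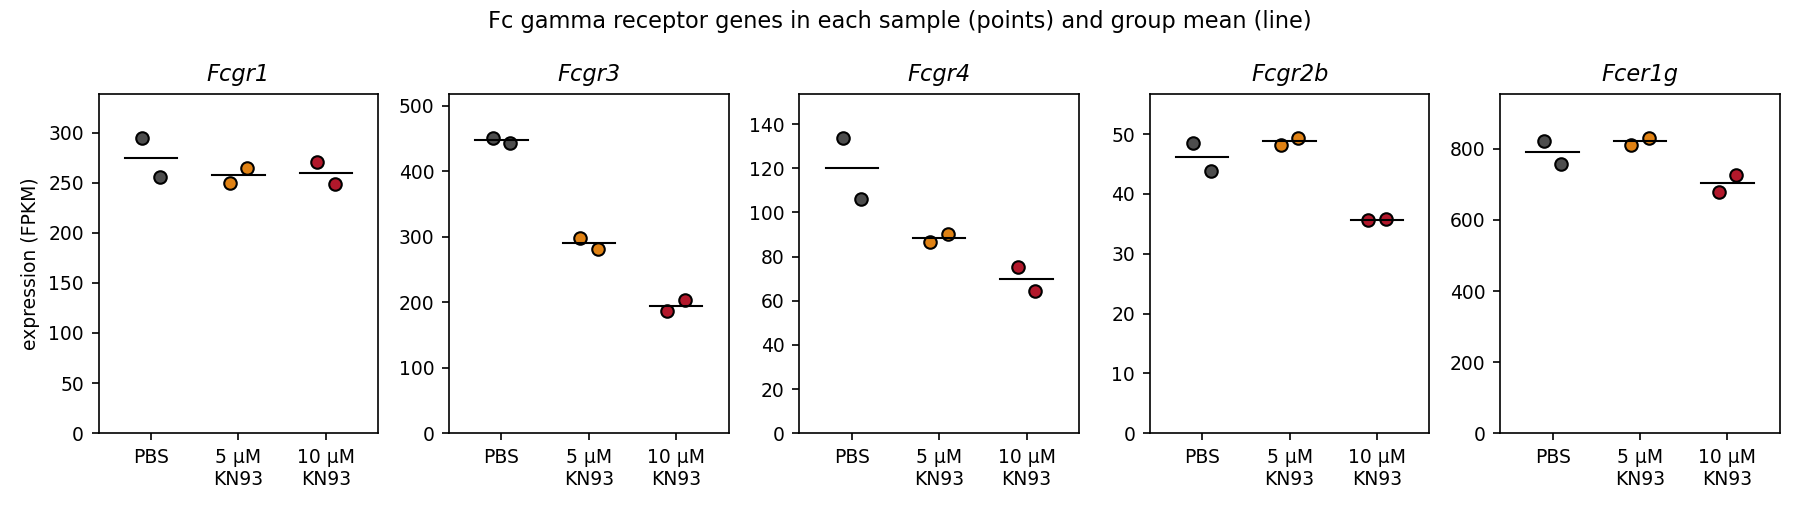
Expression of the 5 genes (vertical axes, FPKM, each from 0) in cells given PBS, 5 µM or 10 µM KN93, with 1 point per sample and a line at the group mean. Fcgr3 steps down at each dose, Fcgr4 is lower in both KN93 groups, Fcgr2b and Fcer1g are lowest at 10 µM, and the groups of Fcgr1 overlap.

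Changes were tested with limma on log2(FPKM + 1), a scale that understates the change of low genes, with p-values adjusted by Benjamini-Hochberg over the 12722 genes that reached 1 FPKM in at least 2 samples. All 5 members passed this filter in every sample. A gene is said to have risen or fallen where its adjusted p was under 0.05, and errors of log2 changes are standard errors. At 5 µM 1 of the 5 genes fell against PBS and none rose, where 15.4% of all genes tested were called lower (30.5% called in either direction). At 10 µM 3 of 5 fell and none rose, where 22.0% were called lower (50.5% in either direction). Between 5 and 10 µM 2 of 5 fell, where 8.50% were called lower (19.9% in either direction). The members are a gene family, and 5 genes are too few to set their shares against the background with any precision. The median log2 change of all genes tested was 0.01 at 5 µM and 0.06 at 10 µM against PBS.

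Fcgr3 fell at each step of dose and had the largest change of the 5. It lies at chr1:171051174-171064935 on the minus strand (ENSMUSG00000059498, GRCm38). The PBS samples had 451 and 444 FPKM, the 5 µM samples 298 and 281, and the 10 µM samples 186 and 203. The 3 groups did not overlap, and each dose step was far larger than the gap between the samples of a group. The group means were 447 ± 5.14, 290 ± 11.9 and 194 ± 11.9 FPKM (SD, n = 2). The 5 µM mean was 64.8% and the 10 µM mean 43.5% of the PBS mean. On the log2 scale the change against PBS was -0.62 ± 0.06 at 5 µM and -1.20 ± 0.06 at 10 µM (limma adjusted p = 0.00195 and 8.56e-05). The step from 5 to 10 µM was -0.57 ± 0.06 (limma adjusted p = 0.00427). The 2 steps differed by 0.05 ± 0.11 (limma adjusted p = 0.824), with a 95% interval from -0.22 to 0.32, so a difference of that size between the steps could not be seen here.

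Fcgr4 fell at 10 µM, and its level at 5 µM lay between those of the other groups. It lies at chr1:171018920-171029761 on the plus strand (ENSMUSG00000059089). The PBS samples had 134 and 106 FPKM, the 5 µM samples 86.8 and 90.2, and the 10 µM samples 75.1 and 64.4. The groups did not overlap, but the PBS samples lay further apart than those of either KN93 group. Group means were 120 ± 19.6, 88.5 ± 2.43 and 69.8 ± 7.56 FPKM (SD, n = 2), or 73.8% and 58.2% of PBS at the 2 doses. The log2 change at 10 µM was -0.77 ± 0.13 (limma adjusted p = 0.00427). At 5 µM it was -0.43 ± 0.13, which missed the threshold (limma adjusted p = 0.0513). Under 15 other settings of the analysis this p ran from 0.0131 to 0.177 and passed in 5. The PBS replicate 1 was the higher of the pair. Without PBS replicate 2 the change at 5 µM was -0.59 (limma adjusted p = 0.0272), and without PBS replicate 1 it was -0.26 and did not pass. The step from 5 to 10 µM was -0.34 ± 0.13 (limma adjusted p = 0.11). Of all genes tested, 33.0% were lower without overlap at 5 µM and 32.6% at 10 µM, so separate groups of 2 are common in these data. Between the doses 26.0% were lower without overlap.

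Fcgr1 passed the test in no comparison. It lies on chromosome 3, away from the others, at chr3:96282909-96293969 on the minus strand (ENSMUSG00000015947). The PBS samples had 295 and 255 FPKM, the 5 µM samples 250.1 and 264, and the 10 µM samples 270.4 and 249. The highest value was that of a PBS sample, and the other 5 samples lay within the range of 249 to 270.4 FPKM. Group means were 275 ± 27.8, 257 ± 10.2 and 260 ± 15.1 FPKM (SD, n = 2). The log2 changes against PBS were -0.09 ± 0.09 and -0.08 ± 0.09 (limma adjusted p = 0.458 and 0.474). Their 95% intervals ran from -0.31 to 0.12 and from -0.29 to 0.13, which leaves out a change as large as that of Fcgr3 at either dose.

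Fcgr2b, the inhibitory receptor, fell at 10 µM and did not pass the test at 5 µM. It lies at chr1:170958617-170976547 on the minus strand (ENSMUSG00000026656). The PBS samples had 48.5 and 43.8 FPKM, the 5 µM samples 48.2 and 49.4, and both 10 µM samples 35.7. The PBS and 5 µM samples overlapped, while the 10 µM samples lay below all 4 of them. Group means were 46.2 ± 3.34, 48.8 ± 0.814 and 35.7 ± 0.0457 FPKM (SD, n = 2). The log2 change against PBS was 0.08 ± 0.06 at 5 µM (limma adjusted p = 0.355, 95% interval -0.07 to 0.23) and -0.36 ± 0.06 at 10 µM (limma adjusted p = 0.00444). The step from 5 to 10 µM was -0.44 ± 0.06 (limma adjusted p = 0.00744). That step was lost without 5 µM replicate 2, with a change of -0.42 (limma adjusted p = 0.0517, range over the alternatives 0.00142 to 0.0517).

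The 2 dose steps of Fcgr2b differed by -0.52 ± 0.10 on the log2 scale (limma adjusted p = 0.0497), the 1 such call among the 5 genes, where 2.48% of all genes tested were called lower (5.36% in either direction). This p lay at the threshold. It passed in 3 of 14 alternatives and ranged from 0.0266 to 0.256. For Fcgr1, Fcgr4 and Fcer1g the difference of steps was 0.11 ± 0.15, 0.08 ± 0.22 and -0.28 ± 0.12 (limma adjusted p = 0.704, 0.857 and 0.212).

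Fcer1g, the shared gamma chain, had the highest FPKM of the 5 genes and passed the test in no comparison. It lies at chr1:171229572-171234365 on the minus strand (ENSMUSG00000058715). The PBS samples had 822 and 758 FPKM, the 5 µM samples 810.4 and 831, and the 10 µM samples 679 and 728. Both 10 µM samples lay below the other 4, and the PBS and 5 µM samples overlapped. Group means were 790.0 ± 44.8, 821 ± 14.7 and 703 ± 34.6 FPKM (SD, n = 2), so the 10 µM mean was 89.0% of PBS. The log2 change was 0.06 ± 0.07 at 5 µM and -0.17 ± 0.07 at 10 µM (limma adjusted p = 0.582 and 0.0935). The 95% interval at 10 µM ran from -0.34 to 0.00. The sign at 10 µM depended on the scaling: it was -0.24 with median-of-ratios scaling (limma adjusted p = 0.0349) and 0.09 with quantile normalization (limma adjusted p = 0.282). Over all alternatives the p at 10 µM ran from 0.0253 to 0.375. The step from 5 to 10 µM was -0.22 ± 0.07 (limma adjusted p = 0.0745), and it passed with voom on recovered fragments (-0.22, limma adjusted p = 0.0327).

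**Figure D2:**
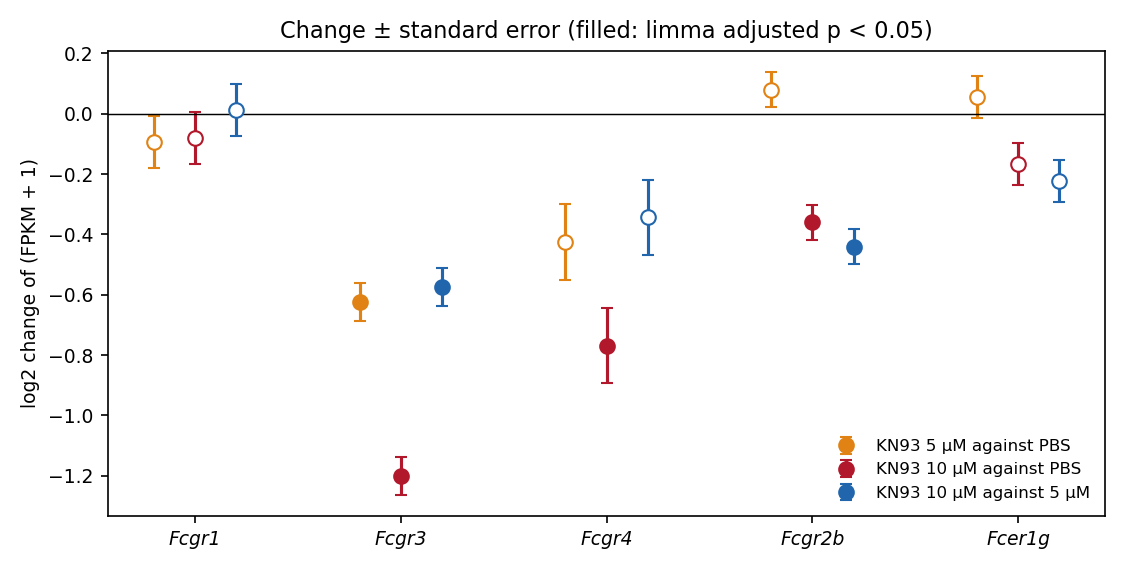
Log2 change of FPKM + 1 (vertical axis) of each gene for the 2 doses against PBS and for 10 µM against 5 µM, with the standard error from limma; filled points have an adjusted p under 0.05. Fcgr3 is filled in all 3 comparisons, Fcgr4 at 10 µM against PBS, Fcgr2b in both comparisons that involve 10 µM, and Fcgr1 and Fcer1g in none.

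The makeup of the receptor transcripts differed between the groups, with a smaller share of Fcgr3 and a larger share of Fcgr1 at each dose of KN93. The 4 receptors summed to 928 and 849 FPKM in the PBS samples, 683 and 686 in the 5 µM samples, and 567 and 552 in the 10 µM samples. Fcgr3 made up 48.6% and 52.3% of that sum in the PBS samples, then 43.7% and 41.1% at the lower dose and 32.8% and 36.8% at the higher. Fcgr1 made up 31.8% and 30.1%, then 36.6% and 38.6%, then 47.7% and 45.1%. Neither share overlapped between groups, and Fcgr1 exceeded Fcgr3 in both 10 µM samples and in no other. The level of Fcgr1 itself passed no test, so its larger share came with a smaller sum. Fcgr4 stayed between 11.7% and 14.4% in every sample. Fcgr2b made up 5.16% to 5.23% of the sum in the PBS samples, 7.06% to 7.20% in the 5 µM samples and 6.29% to 6.48% in the 10 µM samples. The size of each share depends on the exon lengths behind FPKM.

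The ratio of Fcgr3 to Fcgr2b was 9.29 and 10.1 in the PBS samples, 6.19 and 5.70 in the 5 µM samples, and 5.21 and 5.68 in the 10 µM samples. All 4 KN93 samples lay below both PBS samples, and the 2 KN93 groups lay close to each other. The slope of its log2 on dose was -0.0834 per µM (exact permutation test, two-sided, p = 0.0222, the smallest that the 90 assignments allow; adjusted over 3 ratios p = 0.0667). The ratio of the summed activating receptors to Fcgr2b was 18.1 and 18.4 in the PBS samples, 13.2 and 12.9 in the 5 µM samples, and 14.9 and 14.4 in the 10 µM samples. It was lowest at 5 µM, and its slope was -0.0315 per µM (exact permutation p = 0.2, adjusted p = 0.2). Fcer1g over the summed activating receptors was 0.935 and 0.942 in the PBS samples, 1.28 and 1.31 in the 5 µM samples, and 1.28 and 1.41 in the 10 µM samples. By FPKM the chain thus exceeded the sum of its receptor partners in the KN93 samples and not in the PBS samples. Where this ratio lies against 1 depends on the exon lengths behind FPKM. These were 874 bases for Fcer1g and 2589, 1736 and 1256 for Fcgr1, Fcgr3 and Fcgr4. The ratio is not a count of chains per receptor. The slope was 0.0516 per µM (exact permutation p = 0.0444, adjusted p = 0.0667). For any 2 groups alone the smallest p of this test is 0.333, so pairs of groups were not tested.

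**Figure D3:**
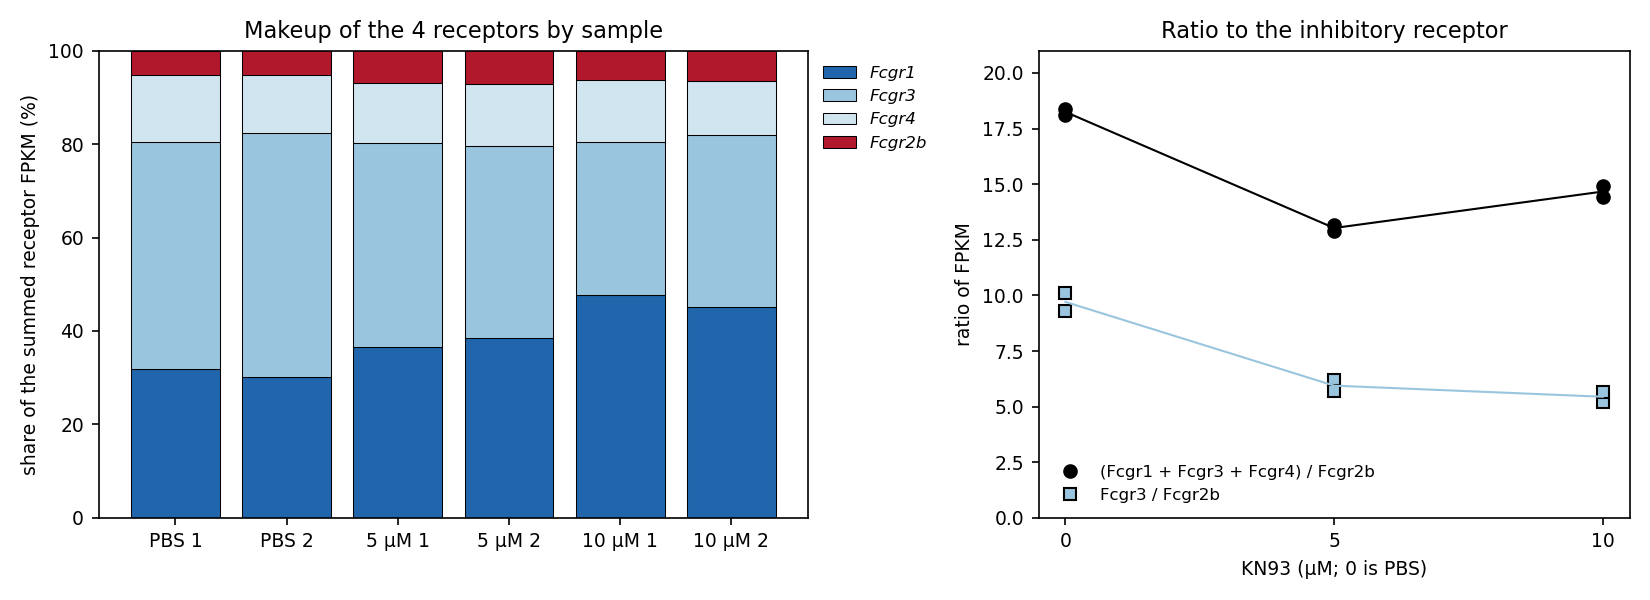
Left, share of each receptor in the summed FPKM of the 4 receptors (stacked bars, %, 1 bar per sample); right, ratio to Fcgr2b of the summed activating receptors and of Fcgr3 alone against KN93 dose (1 point per sample, lines join the group means). The Fcgr3 share falls from 48.6% and 52.3% with PBS to 32.8% and 36.8% at 10 µM, and the ratio for the summed receptors is lowest at 5 µM.

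These are bulk samples, in which fewer cells of a type and less RNA per cell cannot be told apart. All 12 macrophage markers passed the filter on low values, and 10 fell and 1 rose at 10 µM, and 8 fell and 3 rose at 5 µM. Their summed level, most of it Lyz2, was 18570 to 19070 FPKM in the PBS samples, 14570 to 15050 in the 5 µM samples and 8408 to 9268 in the 10 µM samples. Neutrophil markers (6 of 11 tested, all 6 lower at 10 µM) summed to between 173 and 175 FPKM in the PBS samples, 84.8 and 96.4 in the 5 µM samples, and 51.6 and 57.3 in the 10 µM samples. Stromal markers (8 of 10 tested, 6 lower at 10 µM) summed to 1788 to 1847, 494 to 594 and 333 to 355 FPKM. The part of these shifts in the lower levels of Fcgr3, Fcgr4 and Fcgr2b was not tested.

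Markers of NK, T and dendritic cells were near 0. NK cell markers summed to at most 0.18 FPKM in any sample, with Gzma at 0 in all, T cell markers to at most 0.664 with Cd3d at 0, and dendritic cell markers to at most 0.483. Mast cell and basophil markers summed to 4.90 to 5.01 FPKM with PBS and 1.30 to 1.73 with KN93, where 1 of 10, Mcpt8, was tested and fell, with Tpsb2 and Cma1 at 0. B cell markers summed to 15.9 to 21.1 FPKM, most of it Cd22 and Cd79b. Of these, Cd22 and Cd79b were tested, and at 10 µM Cd22 rose and Cd79b fell.

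The other genes of the receptor pathway were followed in 10 lists, with 147 distinct genes of which 129 were tested. At 10 µM 63 fell and 26 rose against PBS, with a median log2 change of -0.15, beside 0.06 for all genes tested. At 5 µM 47 fell and 18 rose, with a median of -0.09. Of all genes tested, 22.0% fell and 28.5% rose at 10 µM, and 15.4% fell and 15.1% rose at 5 µM. With median-of-ratios scaling the balance of calls over all genes turned, from 3631 higher and 2796 lower to 2848 higher and 3296 lower at 10 µM against PBS, and from 1455 and 1081 to 1092 and 1330 between the doses.

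In a list of other Fc receptors and Fc receptor-like genes, 4 of 12 were tested and 3 fell and 1 rose at 10 µM. Fcgrt, which encodes the neonatal Fc receptor that recycles immunoglobulin G, fell from 66.5 ± 0.673 to 37.1 ± 0.659 and 25.4 ± 1.13 FPKM (PBS, then the lower and the higher dose; SD, n = 2). Its log2 change was -0.82 ± 0.05 and -1.36 ± 0.05 (limma adjusted p = 0.00051 and 3.17e-05). Fcrls, an Fc receptor-like gene, fell from 51.6 ± 1.14 to 19.1 ± 1.43 and 15.8 ± 0.894 FPKM. Trim21, which encodes a cytosolic antibody receptor, was 11.8 ± 0.568, 11.7 ± 0.115 and 15.3 ± 0.123 FPKM and rose at 10 µM only among its comparisons with PBS (limma adjusted p = 0.00257; 0.939 at 5 µM).

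The Src-family kinases, Syk and the Tec-family kinases that act below it moved in both directions, with 3 of 8 tested higher and 4 lower at 10 µM. The number lower was 2 without PBS replicate 1, PBS replicate 2 or 10 µM replicate 2. Syk, which docks on the phosphorylated ITAM, rose from 45.4 ± 1.09 FPKM to 55.9 ± 0.428 and 59.5 ± 1.04 (log2 change 0.30 ± 0.04 and 0.38 ± 0.04, limma adjusted p = 0.00632 and 0.00115). Lyn, a Src-family kinase that phosphorylates both ITAM and ITIM, fell from 81.7 ± 3.20 to 55.2 ± 0.304 and 45.6 ± 2.19 FPKM (limma adjusted p = 0.00173 and 0.000165). Tec rose from 8.30 ± 0.0457 to 10.5 ± 0.273 and 12.5 ± 0.752 FPKM, and its call at 5 µM did not hold in 4 of 15 alternatives (p up to 0.07).

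Of 15 adaptors tested, 5 rose and 3 fell at 10 µM. The number that rose was 3 with median-of-ratios scaling and without PBS replicate 1, PBS replicate 2 or 10 µM replicate 1, and 1 fell without 10 µM replicate 2. Lat2, a membrane adaptor of the LAT family, rose from 24.0 ± 0.649 to 53.7 ± 0.566 and 95.1 ± 3.93 FPKM, with a log2 change at 10 µM of 1.94 ± 0.05 (limma adjusted p = 1.46e-05). Blnk rose from 9.90 ± 0.592 to 18.9 ± 1.09 and 20.2 ± 0.643 FPKM. Lcp2, which encodes the related adaptor SLP-76, fell from 24.2 ± 1.74 to 14.7 ± 0.416 and 11.9 ± 0.0802 FPKM. The lipid kinases, phospholipases and protein kinase C genes divided as well, with 6 of 21 tested higher and 5 lower. Pik3cg fell from 14.3 ± 0.0942 to 10.1 ± 0.254 and 8.05 ± 0.699 FPKM, while Pld2 rose from 8.34 ± 0.440 to 11.4 ± 0.286 and 13.2 ± 0.203 and Pip5k1c from 38.9 ± 0.107 to 52.3 ± 1.52 and 56.6 ± 2.47 FPKM.

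Genes of the actin machinery and the phagocytic cup mostly fell: 25 of 35 tested at 10 µM against 3 that rose, with a median log2 change of -0.41. At 5 µM 19 fell and 1 rose, with a median of -0.19. The count that fell at 5 µM was 7 without PBS replicate 1 and 7 without 5 µM replicate 2. It was 8 without 5 µM replicate 1 and 11 without PBS replicate 2. Marcks, an actin-binding substrate of protein kinase C, fell from 49.9 ± 1.78 to 29.4 ± 0.636 and 20.2 ± 0.182 FPKM. Arpc1b, a subunit of the Arp2/3 complex that branches actin, fell from 224 ± 4.02 to 186 ± 0.820 and 134 ± 2.69 FPKM, with the call at the lower dose missed in 3 of 15 alternatives (p up to 0.0654). Gsn, which encodes the actin-severing protein gelsolin, fell from 132 ± 2.88 to 92.0 ± 4.87 and 71.9 ± 1.51 FPKM.

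Of 17 inhibitors of the pathway tested, 8 fell and 3 rose at 10 µM. Inpp5d encodes SHIP1, the phosphatase that FcγRIIB recruits. It fell with Fcgr2b at 10 µM and also at 5 µM, from 46.2 ± 1.88 to 39.8 ± 0.370 and 29.5 ± 0.0265 FPKM (log2 change -0.21 ± 0.05 and -0.63 ± 0.05, limma adjusted p = 0.0226 and 0.000245). At 5 µM that call did not hold in 4 alternatives, each without 1 of the PBS or 5 µM samples, with p from 0.0521 to 0.115. Ptpn6, which encodes the phosphatase SHP-1, was 119 ± 15.2, 97.9 ± 1.61 and 99.2 ± 3.84 FPKM and passed at neither dose (limma adjusted p = 0.0751 and 0.0652). It was called lower at 5 µM with voom and without PBS replicate 2 (limma adjusted p = 0.0228 and 0.024). At 10 µM it was called lower with those settings and with median-of-ratios scaling (limma adjusted p = 0.0212, 0.013 and 0.0332). Dok2, an adaptor that restrains Ras signalling, fell from 14.4 ± 0.321 to 6.16 ± 0.627 and 3.34 ± 0.0665 FPKM. Lilrb4a, an ITIM-bearing receptor, went the other way, from 33.3 ± 0.0969 to 39.1 ± 1.38 and 55.6 ± 4.46 FPKM. It was called at 5 µM (limma adjusted p = 0.0481), which did not hold in 10 of 15 alternatives with p up to 0.194, and at 10 µM, which held in all 15.

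Tyrobp encodes DAP12, an ITAM chain used by other myeloid receptors, and it fell at 10 µM and did not pass the test at 5 µM. The PBS samples had 977 and 1002 FPKM, the 5 µM samples 1073 and 1048, and the 10 µM samples 659 and 772. The log2 change was 0.10 ± 0.09 at 5 µM and -0.47 ± 0.09 at 10 µM (limma adjusted p = 0.431 and 0.00658). Of the 2 others tested in that list, Cd79b fell from 7.81 ± 0.0883 to 3.63 ± 0.144 and 1.48 ± 0.340 FPKM. Hcst, listed there although its product has no ITAM, rose from 13.2 ± 0.795 to 19.2 ± 1.09 and 19.2 ± 2.86 FPKM. The Hcst call at 5 µM did not hold in 5 of 15 alternatives, with p up to 0.0904, nor did that at 10 µM without PBS replicate 1 (limma adjusted p = 0.0589).

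Receptors that use the Fcer1g chain besides the Fc gamma receptors did not move together: of 4 tested, 2 rose and 1 fell at each dose. Clec4e, which encodes the glycolipid receptor Mincle, rose from 11.8 ± 1.45 to 17.8 ± 1.55 and 66.0 ± 0.144 FPKM, a log2 change of 2.39 ± 0.09 at 10 µM (limma adjusted p = 3.99e-05). Clec4n, which encodes the fungal sensor Dectin-2, fell from 77.7 ± 5.29 to 55.4 ± 6.43 and 37.4 ± 2.24 FPKM. Its fall at 5 µM, the 1 in that count, did not hold with no filter, without PBS replicate 1 or without 5 µM replicate 2 (limma adjusted p = 0.0548, 0.0816 and 0.0609). The Clec4e call at 5 µM was missed in 1 alternative. Pira2 rose from 2.61 ± 0.302 to 5.60 ± 0.594 and 5.75 ± 0.421 FPKM. In the list of complement receptors, which includes receptors for C5a, 5 of 7 tested fell at 10 µM and none rose. Itgam, a subunit of complement receptor 3 and also 1 of the macrophage markers above, fell from 52.6 ± 3.0 to 24.9 ± 0.987 and 12.7 ± 0.321 FPKM. C5ar1, the C5a receptor, fell from 178 ± 2.47 to 114 ± 2.84 and 60.4 ± 5.13 FPKM, and C5ar2 from 3.47 ± 0.348 to 2.61 ± 0.119 and 1.08 ± 0.0318 FPKM. For C5ar2 the lower dose was called in only 5 of 14 alternatives, with p up to 0.186, and the higher dose in all 14.

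Of 15 genes known to control transcription of Fc receptors, 7 fell and 2 rose at 10 µM, with 1 that rose without PBS replicate 1 and 4 without PBS replicate 2. Spi1, which encodes PU.1, was 108 ± 6.21, 105 ± 1.79 and 104 ± 5.71 FPKM and passed at neither dose (limma adjusted p = 0.661 and 0.582). Ifngr1, a subunit of the interferon gamma receptor, fell from 68.0 ± 1.87 to 36.4 ± 0.558 and 24.2 ± 0.259 FPKM (limma adjusted p = 0.000287 and 2.2e-05). Il10ra fell from 52.2 ± 2.89 to 31.6 ± 0.338 and 22.6 ± 0.342 FPKM. Csf1r, the receptor for the macrophage growth factor CSF1, fell from 649 ± 10.7 to 442 ± 3.43 and 345 ± 25.0 FPKM. Csf1r is also among the macrophage markers above.

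**Figure D4:**
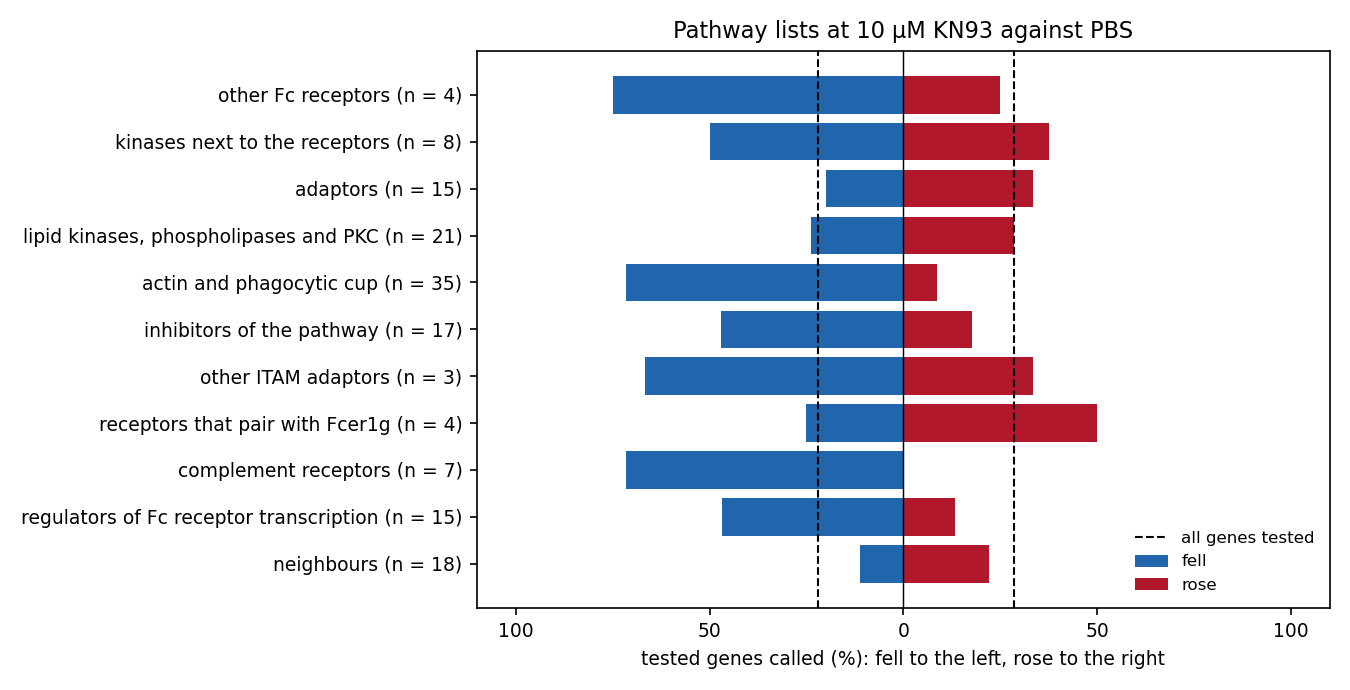
Share of the tested genes of each pathway list that fell (left) or rose (right) at 10 µM KN93 against PBS, in percent, with dashed lines at the shares over all genes tested (22.0% fell, 28.5% rose). The actin list (25 of 35) and the complement receptors (5 of 7) reach far to the left, and the adaptors and lipid kinases divide between the sides.

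Genes within 100 kb of the 5 members were mostly untested or without a call. Of 61 neighbours 18 were tested, and at 10 µM 4 rose and 2 fell, with a median log2 change of 0.01. Fcgr2b, Fcgr4 and Fcgr3 follow each other on chromosome 1 with Fcer1g a little further on. Sdhc, which lies between the receptors and Fcer1g, was not called, and neither were Dusp12, Gm26620 and Gm2962. Beyond Fcgr2b, Atf6 rose at 10 µM (log2 change 0.37 ± 0.06, limma adjusted p = 0.0039). Around Fcer1g, Usp21 fell (-0.45 ± 0.07, limma adjusted p = 0.00259) and Pcp4l1 fell (-0.70 ± 0.13, limma adjusted p = 0.00737) at 10 µM, while Tomm40l was called higher at 5 µM and not at 10 µM. The Tomm40l call did not hold in 12 of 15 alternatives, with p up to 0.186. B4galt3, Ufc1, Dedd, Rpl27-ps1, Adamts4 and Ppox were called at neither dose. Near Fcgr1, Hist2h2be, Gm20633 and Bola1 rose at 10 µM, by 0.70, 0.74 and 0.37 on the log2 scale. That scale understates the changes of Pcp4l1 and Gm20633, which are low: Pcp4l1 was 1.12 ± 0.0889 FPKM with PBS and 0.315 ± 0.186 at 10 µM (28.1% of PBS). Gm20633 was 0.385 ± 0.0864 and 1.31 ± 0.111 FPKM (SD, n = 2). Annotated genes overlap 3 members: Gm38204 is antisense to Fcgr2b, Mir6546 lies in Fcgr3 and Gm26110 in Fcgr4. None of these 3 passed the filter, and the authors' use of strand is not given in the sources used here.

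**Figure D5:**
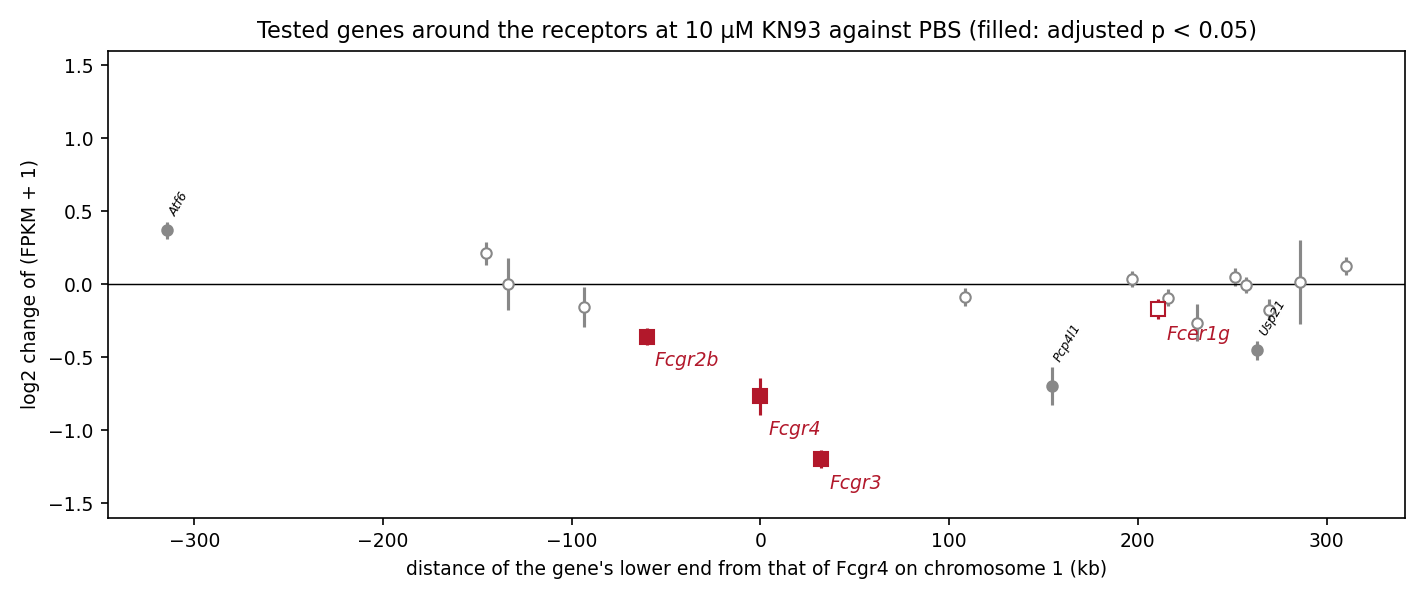
Log2 change of FPKM + 1 at 10 µM KN93 against PBS (vertical axis) of the tested genes around Fcgr2b, Fcgr4, Fcgr3 and Fcer1g, by distance on chromosome 1 from Fcgr4 (kb); filled points have an adjusted p under 0.05, and of the neighbours (grey) those are named. Fcgr2b, Fcgr4 and Fcgr3 lie below 0 by 0.36, 0.77 and 1.20, and most neighbours lie near 0.

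For each member, the tested genes with the most alike profile over the 6 samples were found from the root mean square difference of centred log2(FPKM + 1). These are descriptions over 6 samples of 3 groups. Closest to Fcgr3 were Ckb (difference 0.0464), Ifi27l2a (0.0512) and Castor2 (0.0551), and Ckb had 86.2 ± 1.30, 58.1 ± 0.111 and 39.4 ± 1.69 FPKM (SD, n = 2) with PBS, 5 µM and 10 µM. Closest to Fcgr4 were Ptprj (0.0411), Rgs18 (0.0540) and Pik3cd (0.0641), of which Ptprj and Pik3cd stand in the inhibitor and lipid kinase lists above. Closest to Fcgr2b were Gdf3 (0.0412), Itgb2 (0.0439) and Ssbp4 (0.0443). Itgb2, the beta subunit of complement receptor 3, was 387 ± 2.46, 413 ± 5.92 and 306 ± 10.7 FPKM. Closest to Fcgr1 were Themis2 (0.0224), Tbc1d13 (0.0290) and Bcl6 (0.0319), and closest to Fcer1g were Wdr83 (0.0267) and Mdh1 (0.0309). Among the members the nearest pair was Fcgr2b and Fcer1g (0.101), and Fcgr3 was nearest to Fcgr4 (0.224) and furthest from Fcgr1 (0.467). The genes above were picked as the nearest of all tested, so they are no yardstick for the members. By rank among the tested genes, Fcer1g was 176 in likeness to Fcgr2b, and Fcgr2b was 1128 in likeness to Fcer1g. Fcgr4 was 552 in likeness to Fcgr3, and Fcgr3 was 1448 in likeness to Fcgr4. Fcgr3 was 11593 in likeness to Fcgr1, and Fcgr1 was 4128 in likeness to Fcgr3.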

How the data were processed

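The deposited values are FPKM in 1 table of 54446 entries, which the authors made from reads aligned with HISAT2 to GRCm38, per the submitters' processing notes. For the HISAT2 version, the counting tool, the annotation and the use of strand, nothing is given in the sources used here. The prefix DXM of the column names is also not explained by any label. Per the labels' protocols, the RNA is TRIzol-extracted total RNA and the libraries are standard Illumina ones. Every value column belonged to 1 of the 6 samples.

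The gene IDs of 54409 entries (99.93%) matched GENCODE M21, an annotation of GRCm38, which gave coordinates and exon lengths. FPKM times exon length came out as whole multiples of 1 step per sample, within 0.1 fragment. This held for 98.78% to 98.96% of values of up to 20 fragments. The step gave the implied library totals and the fragments behind each value. One fragment of a gene of 1000 exon bases was worth 0.0352 to 0.0414 FPKM.

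The test covered 12722 genes, those that reached 1 FPKM in 2 or more samples. The fit used log2(FPKM + 1) in limma 3.58.1 (R 4.3.3) with an intensity trend, 3 groups and all 6 samples, two-sided tests and Benjamini-Hochberg adjustment over the genes tested. It had 3 residual degrees of freedom, to which the moderation added 2.72. The script was tested on simulated data. The settings varied were the pseudocount (0.1 FPKM), the filter (none or 5 FPKM), median-of-ratios scaling (factors 0.9739 to 1.0298), quantile normalization, no trend, fits of 2 groups alone, a replicate block, voom on recovered fragments, and each sample left out in turn. Ratios were tested by exact permutation over 90 assignments of samples to groups.

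The members and the gene lists were chosen with earlier results of these data known. Named genes are the 5 members, up to 3 genes of each list with the smallest p at 10 µM against PBS, genes with a role beside the receptors, the 3 most alike profiles of each member and the tested neighbours. Some results that this rule would name are not reported here. Cd22, Mcpt8, Lyz2, Gzma, Cd3d, Tpsb2 and Cma1 are marker genes singled out after their values were seen. Protein sequences were not used here.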

Additional observations from a re-analysis of the deposited data

How the results depend on the processing

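Of the calls of single members, those of Fcgr3 in all 3 comparisons and those of Fcgr2b and Fcgr4 at 10 µM against PBS kept their direction and their side of the threshold in the 15 alternatives of each. The count of members called at 5 µM against PBS was 2 in place of 1, with Fcgr4 added, with a filter of 5 FPKM, with median-of-ratios scaling, with the replicate block and with voom on recovered fragments. The count for the difference of the dose steps was 0 in place of 1 with a pseudocount of 0.1 FPKM, no filter, median-of-ratios scaling, no intensity trend and the replicate block. With no filter 1350 genes in place of 2536 were called between the doses, where more genes were tested. Leaving out 1 sample gave 1 to 2 members called at 5 µM against PBS, 3 to 3 at 10 µM, 1 to 2 between the doses and 0 to 0 for the difference of steps. Over all genes the called numbers were 1897 to 3856 for 5 µM, 4575 to 5977 for 10 µM and 869 to 1922 for the doses against each other, with fewer samples in each fit.

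The directions that turned were small changes that passed no test in the main fit, the one described above. Of these, Fcer1g at 10 µM was called lower with median-of-ratios scaling (-0.242, limma adjusted p = 0.0349) and with voom (-0.198, limma adjusted p = 0.0253). With median-of-ratios scaling Fcgr1 between the doses was -0.033 and Tomm40l at 10 µM -0.025. With quantile normalization Fcer1g at 10 µM was 0.093 and Tyrobp at 5 µM -0.042. Leaving out 1 sample turned others, which at 5 µM ran from -0.196 to 0.01 for Fcgr1, -0.002 to 0.114 for Fcer1g, -0.052 to 0.039 for Trim21, -0.1 to 0.017 for Spi1 and -0.01 to 0.119 for Pcp4l1. At 10 µM they ran from -0.183 to 0.022 for Fcgr1 and -0.104 to 0.012 for Spi1, and between the doses from -0.046 to 0.072 for Fcgr1. The difference of steps ran from -0.034 to 0.133 for Fcgr3 and -0.085 to 0.247 for Fcgr4. The cause was not tested.

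The replicate numbers come from the titles. The deviations of same-numbered samples from their group means had correlations of -0.055, 0.0143 and 0.0373, so no shared shift was seen. Whether same-numbered samples share a culture, mouse or batch cannot be told from this. With the replicate block 3409, 6023 and 2079 genes were called (5 µM, 10 µM, and 1 dose against the other), and the slopes of the ratios stayed at -0.0834 for Fcgr3 over Fcgr2b and 0.0516 for Fcer1g over the activating receptors, each with an exact permutation p = 0.0556, the smallest that the block allows. Leaving out 1 sample gave slopes from -0.097 to -0.0698 and from 0.0454 to 0.0635, with exact permutation p up to 0.0667 and 0.133.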
